A study of Homo sapiens with 12 samples.

Results

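The transcripts described here are those of 8 genes that convert lactate or carry it across membranes. They are 8 of the 45478 genes counted, taken by gene symbol, and comprise the lactate dehydrogenases LDHA, LDHB and LDHD, the monocarboxylate transporters SLC16A1, SLC16A3 and SLC16A7, and the transporter chaperones BSG and EMB. They were listed as a family, except that LDHB was chosen by its measured fold changes, which in earlier results of these same counts differed between the cell lines. For that reason the changes of LDHB, the difference between them and the LDHA to LDHB ratio are given as a description with no test, and LDHB is left out of the counts of members called. The libraries came from clear cell renal cell carcinoma (ccRCC) cell lines, with 3 libraries in each of 4 groups. The groups were the parental lines A498 and 786-O and a line labelled sunitinib-resistant from each, called resistant A498 and resistant 786-O here. The resistant lines were derived by culture with sunitinib, an inhibitor of receptor tyrosine kinases, at 2 μM for A498 and 4 μM for 786-O, for 4 months or for over 20 passages. All groups were labelled as untreated at harvest and shared a medium with 25 mM glucose and glutamine. Each resistant line was a single selected culture, and the replicate libraries are not stated to be separate cultures, so the p-values measure only the spread between these libraries.

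Lactate dehydrogenase is a tetramer that interconverts pyruvate and lactate with NADH as the cofactor. LDHA encodes the muscle type subunit, which favours lactate formation, LDHB encodes the heart type subunit, which favours pyruvate formation, and LDHD encodes a mitochondrial enzyme that oxidises D-lactate. SLC16A1 (MCT1), SLC16A3 (MCT4) and SLC16A7 (MCT2) move lactate with a proton across the plasma membrane, and BSG (basigin) or EMB (embigin) is needed to bring them there. In ccRCC, loss of VHL stabilises hypoxia-inducible factors, and LDHA and SLC16A3 are well-known targets of that response.

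The libraries labelled as resistant A498 went against their label. Across 19929 genes, the median Pearson correlation of log2 CPM, the counts scaled to a common library size, between their libraries and those of parental A498 was 0.870, against 0.951 with parental 786-O and 0.982 with resistant 786-O, while that between the parental lines was 0.868. HIF1A, the oxygen-sensitive subunit of hypoxia-inducible factor 1, had 6718 to 10747 counts in the parental A498 libraries, 176 to 238 in resistant A498, 421 to 452 in parental 786-O and 389 to 460 in resistant 786-O. Every result that rests on the resistant A498 libraries is therefore also given against parental 786-O. Total counts ranged from 20042519 to 47972092 per library. Each group had a separate batch label, so batch and group cannot be told apart. Of 9 markers of renal epithelium and ccRCC, 9 reached 1 CPM in parental A498 and 8 in each other group, the missing one being CA9. No T cell marker of 5 and no endothelial marker of 2 reached that level in any group. COL1A1, 1 of 3 fibroblast markers, did so at 55.3 in parental A498 and at 2.25 to 3.70 elsewhere.

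By the annotation, most of the LDHB transcript is shared with another counted gene. In the GENCODE 44 annotation of GRCh38, LDHB lies on the minus strand at chr12:21635342-21757857, and its main transcript has 8 exons and 1303 bases. Of these, 997 bases (76.5%) also belong to exons of ENSG00000285854, a gene on the same strand that runs on from LDHB. The counting options that the study states include none for reads that meet more than 1 gene. ENSG00000285854 itself had 4 counts in all 12 libraries together. The 306 bases that are LDHB alone are 44 at the start of exon 1 and stretches of 65 and 197 in exon 8, the last of which ends the transcript. The authors counted with GENCODE 33, so the bases lost in the deposited counts may differ. The other 7 members share no same-strand exon bases with another gene in their main transcript. The level of LDHB is therefore read as a lower limit, and ratios of LDHA to LDHB below are values of the counts as deposited and not of the transcripts in the cells. The part of these shared exons in the differences between groups was not tested.

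**Figure D1:**
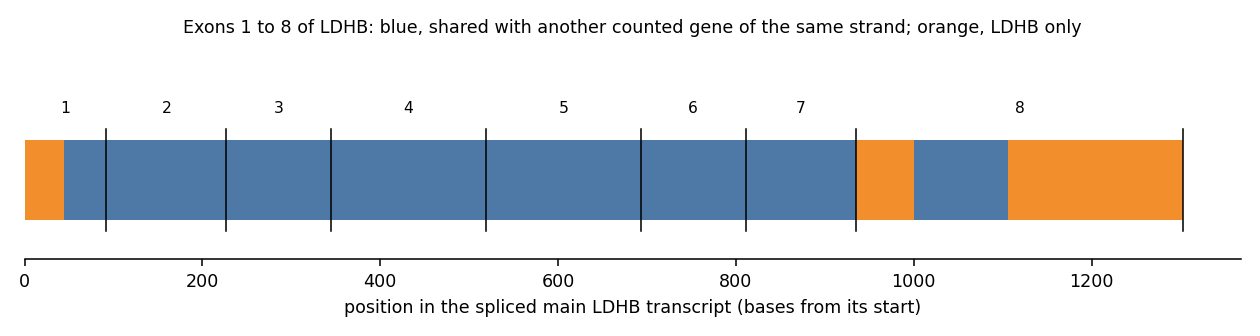
Exons of the main LDHB transcript drawn to scale along the transcript (bases from its start), with bases that are LDHB alone in orange and bases shared with ENSG00000285854 in blue. Shared bases fill 997 of 1303, and the longest stretch of LDHB alone, 197 bases, is at the 3′ end.

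The promoters of the genes on which the results turn differed in ACGTG, 1 form of the core letters to which hypoxia-inducible factors bind. Other forms of that core were not searched for, so the numbers of places below are of ACGTG alone. RefSeq promoters (GRCh38.p14) were matched for 5 of the 8 members, LDHA, LDHB, SLC16A3, SLC16A7 and BSG. The 250 bases before the main start are printed 5′ to 3′ for LDHA (chr11:18394313-18394562, plus strand), LDHB (chr12:21657843-21658092, minus strand) and SLC16A3 (chr17:82228792-82229041, plus strand), because these 3 genes carry the contrast between the lactate-forming enzyme, its partner subunit and the exporter. Capitals mark ACGTG on either strand, which reads CACGT where it lies on the opposite strand and CACGTG, the E-box of the MYC family, where both overlap.
LDHA: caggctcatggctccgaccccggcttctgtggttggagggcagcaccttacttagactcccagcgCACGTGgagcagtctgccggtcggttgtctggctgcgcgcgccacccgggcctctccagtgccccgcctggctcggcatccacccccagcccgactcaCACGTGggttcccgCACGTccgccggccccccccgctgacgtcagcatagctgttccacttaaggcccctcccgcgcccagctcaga
LDHB: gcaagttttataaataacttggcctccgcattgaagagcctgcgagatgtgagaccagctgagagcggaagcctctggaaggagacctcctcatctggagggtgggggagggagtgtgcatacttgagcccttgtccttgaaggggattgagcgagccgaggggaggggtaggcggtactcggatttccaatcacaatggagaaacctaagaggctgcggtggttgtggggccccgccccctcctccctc
SLC16A3: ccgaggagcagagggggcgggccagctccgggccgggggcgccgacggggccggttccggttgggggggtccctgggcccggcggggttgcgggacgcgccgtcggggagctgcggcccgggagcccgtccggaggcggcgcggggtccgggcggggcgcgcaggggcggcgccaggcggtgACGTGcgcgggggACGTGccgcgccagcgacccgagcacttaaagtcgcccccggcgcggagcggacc
The LDHA stretch held 3 such places and that of SLC16A3 held 2. The stretches of LDHB and of SLC16A7 held none, and that of BSG held 1. Among 35116 promoters of the same length, 6501 (18.5%) held at least 1. Those promoters belong to 27305 gene symbols and so include other starts, while the members are given at their main start. The other starts of LDHA, SLC16A3, SLC16A7 and BSG held none. A match describes the letters and is not evidence of binding.

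Levels are given as CPM on library sizes normalised by the TMM method, and between genes as RPKM, the same value per kilobase of exon. LDHA was the most abundant of the dehydrogenases in every group, at 168 to 283 RPKM as group means, followed by LDHB at 1.56 to 8.10 and LDHD at 0.0209 to 0.297. Among the transporters, SLC16A3 stood at 43.5 to 69.4 RPKM, SLC16A1 at 14.6 to 24.9 and SLC16A7 at 0.636 to 1.09. BSG had 120 RPKM in parental A498 and 165 in parental 786-O, below LDHA with 224 and 283. In resistant A498 and resistant 786-O the order of these genes was the other way, with 221 and 237 RPKM for BSG against 200.3 and 168 for LDHA. That order rests on the length assumed, the merged exons of 6026 bases for LDHA and 4418 for BSG. Their main transcripts have 2241 and 1946 bases. In CPM, which uses no length, LDHA was above BSG in resistant A498 (1207 against 974). In resistant 786-O the CPM ranges of the libraries overlapped (means of 1010 for LDHA and 1048 for BSG). The remaining order, SLC16A3, SLC16A1, LDHB, SLC16A7 and LDHD, was the same in all 4 groups, and no neighbours in any group overlapped in their library ranges. EMB had 10 counts in all 12 libraries together, with none in parental A498 or parental 786-O, up to 5 per library in resistant A498 and up to 2 in resistant 786-O. It did not pass the filter on low counts. With no filter, edgeR called it in resistant A498 against parental A498 (adjusted p = 0.038) and against parental 786-O (adjusted p = 0.0206), which rests on counts of 0, 1 and 5 in the resistant A498 libraries, and not in resistant 786-O against parental 786-O (adjusted p = 0.155).

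**Figure D2:**
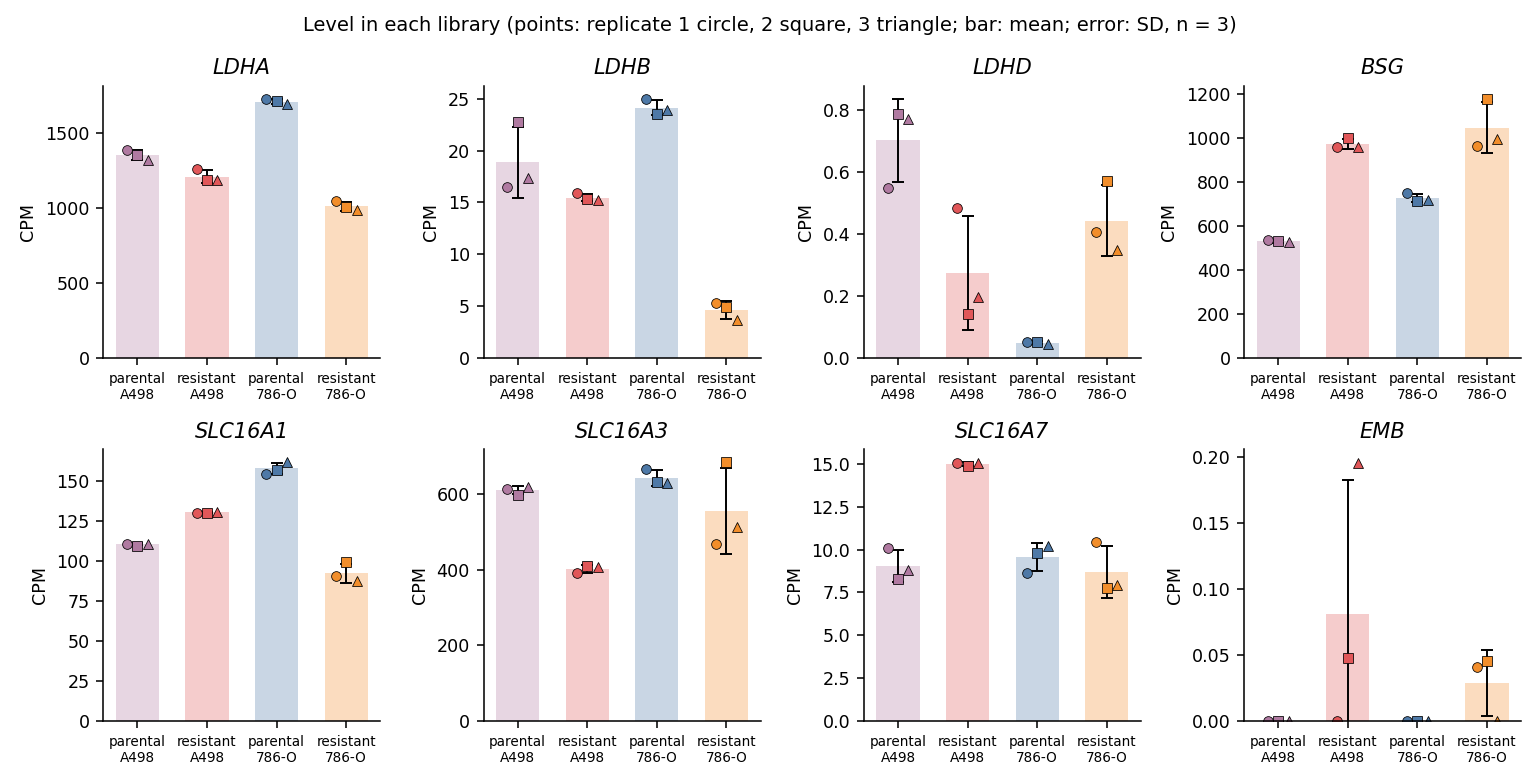
CPM of each member in the 12 libraries by group (points), with the mean of 3 libraries (bar from 0) and SD (error bar). The panels of LDHB, SLC16A1 and LDHA show the resistant 786-O libraries below those of the other 3 groups, and that of BSG shows the resistant groups above both parental groups.

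LDHA fell in resistant 786-O and, by a smaller amount that varied with the processing, in resistant A498. The libraries of parental 786-O had 1724, 1707 and 1688 CPM and those of resistant 786-O 1043, 1002 and 986. The parental A498 libraries had 1384, 1350 and 1317 CPM and the resistant A498 libraries 1255, 1182 and 1184. In bulk RNA, fewer cells of a type and less RNA per cell cannot be told apart. All 3 resistant libraries lay below all 3 parental ones in each line, with parental 786-O highest and resistant 786-O lowest of the 4 groups. The log2 fold change was -0.76 (SE 0.0416, adjusted p = 6.66e-10) in resistant 786-O and -0.16 (SE 0.0415, adjusted p = 0.00258) in resistant A498, by the quasi-likelihood test of edgeR, with Benjamini-Hochberg adjusted p-values over all genes tested here and below. The latter call was lost without resistant A498 replicate 2 (-0.11, adjusted p = 0.0538), without resistant A498 replicate 3 (-0.12, adjusted p = 0.0513) and with no filter on low counts (-0.12, adjusted p = 0.0746), and the change was larger with the trend of fold changes with GC content and exon length removed (-0.43, adjusted p = 3.44e-08). Against parental 786-O, the resistant A498 libraries were lower by a log2 fold change of -0.50 (adjusted p = 6.56e-08). This comparison shares the parental 786-O libraries with that of resistant 786-O. The change in resistant A498 minus that in resistant 786-O was 0.59 (adjusted p = 3.33e-07), and 0.21 (adjusted p = 0.0014) with that trend removed.

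LDHB lay far lower in resistant 786-O than in parental 786-O and a little lower in resistant A498 than in parental A498. The parental 786-O libraries had 25.0, 23.6 and 23.9 CPM and the resistant 786-O libraries 5.35, 4.94 and 3.63. The parental A498 libraries had 16.5, 22.8 and 17.4 CPM and the resistant A498 libraries 15.9, 15.3 and 15.2. In each line the resistant libraries lay below the parental ones, by a wide gap in resistant 786-O and a narrow gap in resistant A498. Log2 fold changes were -2.38 (SE 0.130) in resistant 786-O, -0.28 (SE 0.126) in resistant A498 and -0.64 (SE 0.122) for resistant A498 against parental 786-O. The change in resistant A498 minus that in resistant 786-O was 2.1 (SE 0.181). LDHB was chosen by these values, which carry no test. Parental A498 replicate 2 stood above the other parental A498 libraries, and without it the change in resistant A498 was -0.13. Over the 12 fits that each left out 1 library that change ranged from -0.37 to -0.13, and the change in resistant 786-O from -2.47 to -2.21. The pseudogenes that could take LDHB reads were low, with LDHBP2 at no more than 0.882 CPM in any library.

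The LDHA to LDHB ratio was higher in resistant 786-O than in the other 3 groups. Per kilobase of exon, the ratio was 36.2 ± 6.28 in parental A498, 38.6 ± 0.455 in resistant A498, 35.0 ± 0.867 in parental 786-O and 110.4 ± 20.9 in resistant 786-O (mean ± SD, n = 3 libraries). The ranges over libraries were 29.3 to 41.6 in parental A498, 38.2 to 39.1 in resistant A498, 34.2 to 35.9 in parental 786-O and 96.5 to 134.5 in resistant 786-O. The parental A498 range holds those of resistant A498 and parental 786-O, and the resistant 786-O libraries lie apart from all of them. Both LDHA and LDHB were lower in resistant 786-O than in parental 786-O, LDHB by more. As plain counts the ratio was 73.0, 78.0, 70.7 and 223 in the same order. The same counts were also divided by the 306 bases that are LDHB alone and, for LDHA, by the 2241 bases of its main transcript. The ratio was then 9.97, 10.7, 9.65 and 30.5. Reads on those 306 bases were not counted apart, so these are the plain count ratios on another scale. A change in the length assumed multiplies the ratio of every library alike, so it cannot alter the order of the groups. With the trend of fold changes with GC content and exon length removed, the ratio was 37.6, 36.4, 34.2 and 115 in the same order. Parental A498 was then above resistant A498.

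**Figure D3:**
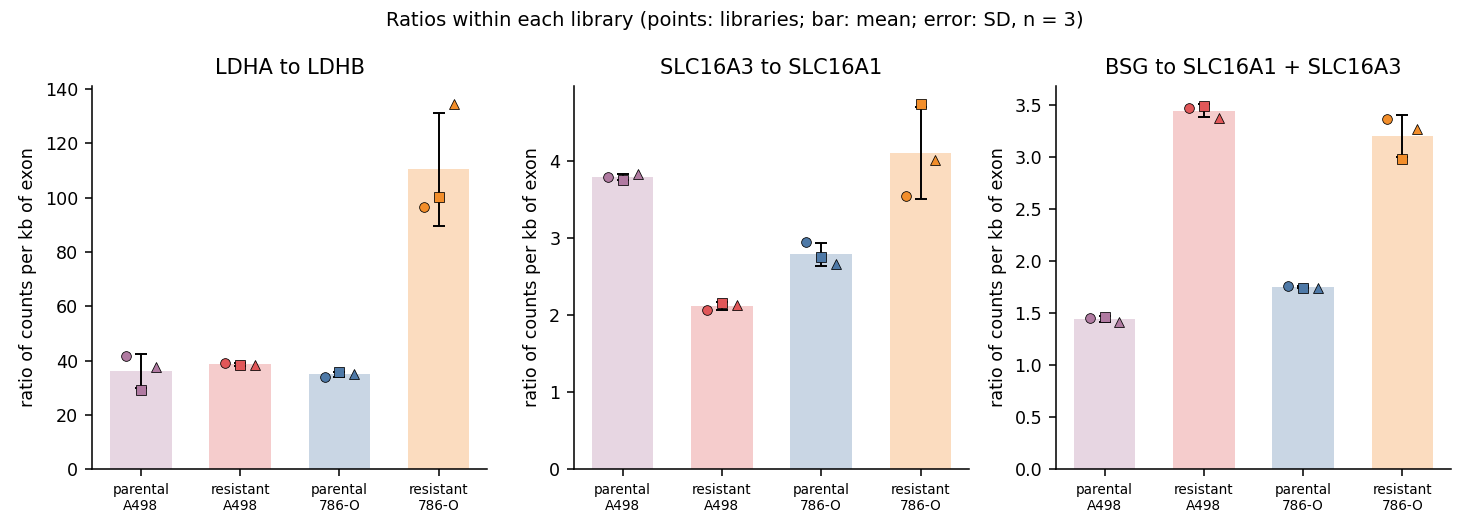
Ratios within each library, per kilobase of merged exons, by group (points), with the mean of 3 libraries (bar from 0) and SD (error bar). LDHA to LDHB is 96.5 to 134.5 in resistant 786-O and 29.3 to 41.6 over the other 9 libraries, and BSG to SLC16A1 plus SLC16A3 is higher in both resistant groups than in either parental group.

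LDHD was at the limit of detection. It had 19, 17 and 21 counts in the parental A498 libraries, 13, 3 and 5 in resistant A498, 2 in each parental 786-O library and 20, 25 and 16 in resistant 786-O. Its libraries lay lower in resistant A498 than in parental A498 and higher in resistant 786-O than in parental 786-O, with no overlap in either. It passed the filter on low counts through parental A498 and resistant 786-O, where it was high, and not through parental 786-O or resistant A498. The call below is therefore given as a description. In resistant A498 the fitted log2 fold change was -1.27 (SE 0.386, adjusted p = 0.00811), a call lost without resistant A498 replicate 3 (-1.03, adjusted p = 0.0502). Summed over libraries and scaled to depth, resistant 786-O had 8.95 times the counts of parental 786-O (95% counting interval 3.88 to 25.3). The resistant A498 libraries had 5.82 times those of parental 786-O (2.27 to 17.6), opposite in direction to the comparison with parental A498. The intervals cover counting error only.

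LDHC, the testis-type lactate dehydrogenase, was looked at as a related gene and is named after its values were seen. It had 35 to 64 counts in each parental 786-O library, 145 in sum, and sums of 5 in resistant 786-O, 2 in resistant A498 and 2 in parental A498. The ratio of parental 786-O to resistant 786-O was 32.95 (95% counting interval 13.8 to 103), and parental 786-O stood apart from the other 3 groups. LDHC passed the filter on low counts only through parental 786-O, where it was high. The interval covers counting error only and is no test of the difference.

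SLC16A1, which carries lactate in either direction, fell in resistant 786-O, while in resistant A498 it was higher than in parental A498 and lower than in parental 786-O. The parental A498 libraries had 110.8, 109.6 and 110.8 CPM and the resistant A498 libraries 130.0, 130.2 and 130.8. The parental 786-O libraries had 154.6, 157.0 and 161.7 CPM and the resistant 786-O libraries 90.4, 99.1 and 87.6. Libraries of the compared groups did not overlap, and resistant 786-O was the lowest group and parental 786-O the highest. Its log2 fold change was 0.24 in resistant A498 (SE 0.0478, adjusted p = 0.000351) and -0.77 in resistant 786-O (SE 0.0473, adjusted p = 2.13e-09), with a difference of 1.01 (adjusted p = 3.94e-09). Against parental 786-O, resistant A498 was lower instead, at -0.28 (adjusted p = 0.000118). The increase over parental A498 was also absent once the GC and length trend was removed (-0.0018, adjusted p = 0.974), while the decrease in resistant 786-O was then -0.72.

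SLC16A3, a transporter suited to lactate export from glycolytic cells, fell in resistant A498. The parental A498 libraries had 612.1, 598.0 and 617.7 CPM and the resistant A498 libraries 390.6, 408.8 and 405.8. The parental 786-O libraries had 664.9, 630.2 and 627.4 CPM and the resistant 786-O libraries 467.6, 683.7 and 512.4. The resistant A498 libraries were lowest of all 4 groups, and resistant 786-O replicate 2 lay above all parental 786-O libraries while replicates 1 and 3 lay below them. The log2 fold change was -0.60 in resistant A498 against parental A498 (SE 0.0971, adjusted p = 4.94e-05) and -0.67 against parental 786-O (adjusted p = 2.21e-05). In resistant 786-O it was -0.21 (SE 0.0963, adjusted p = 0.067), which did not pass. With no filter on low counts it passed (-0.21, adjusted p = 0.000928). Without resistant 786-O replicate 2 it was -0.39 (adjusted p = 1.86e-10), and with the GC and length trend removed it was -0.71 (adjusted p = 0.000115). The difference between the lines, -0.39 (adjusted p = 0.0192), was lost without resistant A498 replicate 1 (-0.36, adjusted p = 0.0547). It was -0.20 (adjusted p = 0.00116) without resistant 786-O replicate 2 and 0.24 (adjusted p = 0.217) with that trend removed. The main SLC16A3 transcript shares 482 bases (18.6%) with CSNK1D on the opposite strand. The counts did not keep strands apart in pairs looked at after their values were seen, with TUBA1B-AS1 at 73.7 to 89.2% of the TUBA1B counts and BEST1 at 75.4 to 84.4% of those of FTH1, so reads of the 2 genes may be mixed.

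SLC16A7, a carrier with high affinity for lactate and pyruvate, rose in resistant A498. The parental A498 libraries had 10.07, 8.27 and 8.82 CPM and the resistant A498 libraries 15.05, 14.87 and 15.05. The parental 786-O libraries had 8.62, 9.82 and 10.18 CPM and the resistant 786-O libraries 10.47, 7.76 and 7.91. The resistant A498 libraries stood above all others, and the ranges of the other 3 groups overlapped. Its log2 fold change was 0.72 against parental A498 (SE 0.118, adjusted p = 5.62e-05) and 0.65 against parental 786-O (adjusted p = 0.000142), and the former was 0.38 (adjusted p = 0.00188) with the GC and length trend removed. In resistant 786-O it was -0.13 (SE 0.113, adjusted p = 0.321), and -0.26 (adjusted p = 0.0295) without resistant 786-O replicate 1. The difference between the lines of 0.85 (adjusted p = 0.000295) was 0.21 (adjusted p = 0.157) with the GC and length trend removed.

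The balance between the main transporters also differed between the lines. The SLC16A3 to SLC16A1 ratio per kilobase was 3.79 ± 0.0406 in parental A498, 2.12 ± 0.0483 in resistant A498, 2.79 ± 0.148 in parental 786-O and 4.11 ± 0.599 in resistant 786-O (SD, n = 3). It was lower in resistant A498 than in either parental group and higher in resistant 786-O than in parental 786-O, with no overlap of libraries. With the GC and length trend removed the log2 fold changes of SLC16A3 and SLC16A1 in resistant 786-O were -0.71 and -0.72, which leaves the ratio there about where it was in parental 786-O. The SLC16A1 to SLC16A7 ratio was 26.5 in parental A498, 18.8 in resistant A498, 35.8 in parental 786-O and 23.4 in resistant 786-O. By the two-sided exact permutation test on log2 ratios each change in a resistant group gave p = 0.1, the smallest that 3 against 3 libraries allow (0.107 adjusted over 15 comparisons of ratios), and the SLC16A1 to SLC16A7 ratios of resistant A498 and resistant 786-O gave p = 0.4.

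BSG, the chaperone of SLC16A1 and SLC16A3, rose in both resistant groups, a call that in resistant 786-O was lost once the trend with GC content and exon length was removed. The parental A498 libraries had 537.9, 530.6 and 526.2 CPM and the resistant A498 libraries 961.4, 999.8 and 961.8. The parental 786-O libraries had 749.1, 714.8 and 719.1 CPM and the resistant 786-O libraries 965.3, 1180 and 999.1. Each resistant library exceeded every parental library, and resistant A498 and resistant 786-O overlapped. The log2 fold change was 0.87 in resistant A498 against parental A498 (SE 0.0613, adjusted p = 5.02e-09), 0.42 against parental 786-O (adjusted p = 2.26e-05) and 0.53 in resistant 786-O (SE 0.0608, adjusted p = 2.07e-06). With the GC and length trend removed, that in resistant 786-O was 0.13 (adjusted p = 0.0894) and that of resistant A498 against parental 786-O 0.30 (adjusted p = 0.00102). The difference between the lines was 0.35 (adjusted p = 0.00222), and 0.95 (adjusted p = 4e-07) with that trend removed. Relative to its clients, BSG to SLC16A1 plus SLC16A3 per kilobase was 1.44 ± 0.0280 in parental A498, 1.75 ± 0.0110 in parental 786-O, 3.44 ± 0.0630 in resistant A498 and 3.20 ± 0.201 in resistant 786-O, with exact permutation p = 0.1 for each resistant group against its parent.

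**Figure D4:**
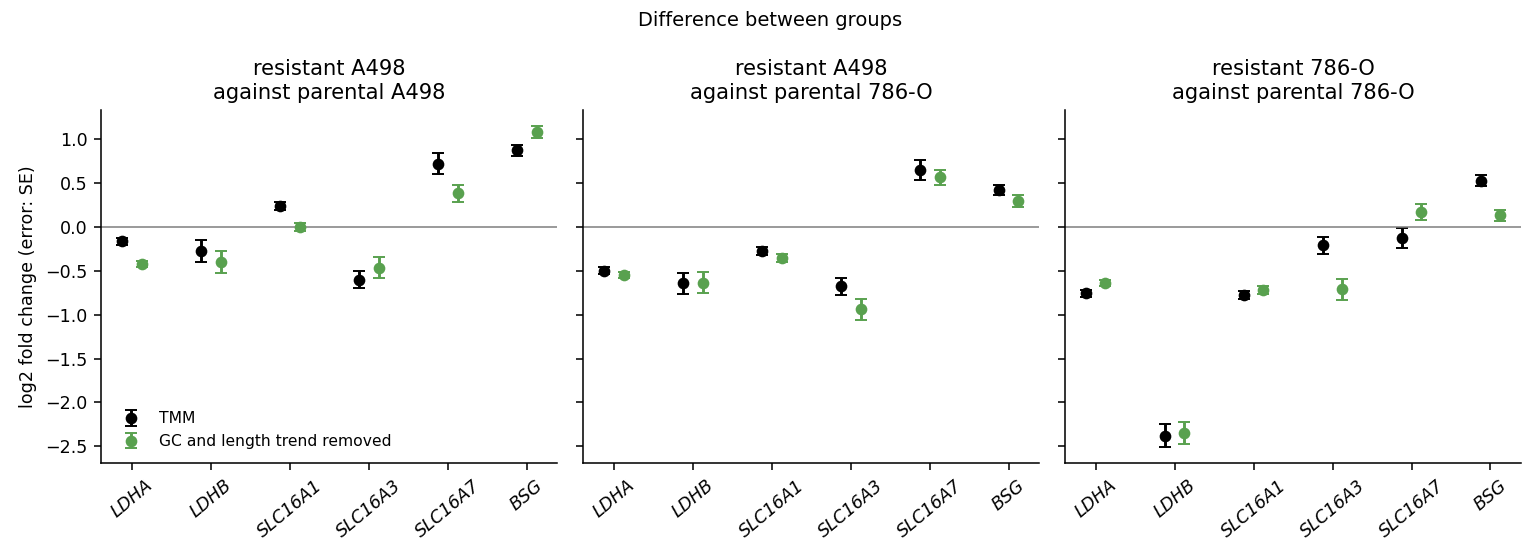
Log2 fold change of 6 members (points) with its SE (bars) for resistant A498 against parental A498, resistant A498 against parental 786-O and resistant 786-O against parental 786-O, as reported (black) and with the GC and length trend removed (green). Among the black points SLC16A1 is above 0 only against parental A498, BSG is above 0 and LDHA below 0 in all 3, and LDHB is lowest in resistant 786-O at -2.38.

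Counts of members called were read against a background in which most genes differed. Of the 7 members other than LDHB, 6 passed the filter on low counts. LDHD is left out of the counts here, since it passed that filter only through parental A498 and resistant 786-O, where it was high. This leaves 5 members, and LDHD had 2 counts in each parental 786-O library. In resistant A498 against parental A498, 5 of 5 were called and did not overlap, SLC16A1, SLC16A7 and BSG higher and LDHA and SLC16A3 lower. There 72.7% of all genes tested were called and 78.5% did not overlap. In resistant 786-O against parental 786-O, 3 of 5 were called, BSG higher and LDHA and SLC16A1 lower, against 68.5% of all genes, and the same 3 did not overlap, against 68.9%. In resistant A498 against parental 786-O, 5 of 5 were called and did not overlap, SLC16A7 and BSG higher and LDHA, SLC16A1 and SLC16A3 lower, against 63.6% called and 73.4% not overlapping. The change differed between the lines for 5 of 5, against 68.3%, and was higher in resistant A498 for 4 (33.9% of all genes) and lower for 1 (34.4%). With shares this high over all genes, being called sets no member apart, and nothing is read from these counts for the changes by which LDHB was chosen. BSG and LDHA were called in 1 direction in each of the comparisons of a resistant with a parental group, which partly share libraries. The share of all genes called in that way is not given, so this sets neither gene apart. The LDHA call in resistant A498 and the BSG call in resistant 786-O were lost in settings given above.

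The parental lines and the resistant groups were also compared with each other. Of the same 5 members, 3 were called in parental 786-O against parental A498, where 74.2% of all genes were (38.2% higher and 36.1% lower), and 4 did not overlap, against 80.2%. LDHA (0.34, adjusted p = 2.6e-06), SLC16A1 (0.52, adjusted p = 1e-07) and BSG (0.45, adjusted p = 6.97e-06) were higher in parental 786-O, and parental A498 had 13.9 times the LDHD counts of parental 786-O (95% counting interval 6.01 to 39.5). SLC16A3 (0.07, adjusted p = 0.507) and SLC16A7 (0.07, adjusted p = 0.609) did not pass. LDHB had a log2 fold change of 0.37. Between resistant A498 and resistant 786-O 4 of these 5 members were called, against 46.1% of all genes (23% in each direction), and the same 4 did not overlap, against 51.7%. LDHA (0.26, adjusted p = 0.000158), SLC16A1 (0.50, adjusted p = 1.39e-06) and SLC16A7 (0.78, adjusted p = 6.53e-05) were higher and SLC16A3 (-0.47, adjusted p = 0.0012) lower in resistant A498. BSG (-0.11, adjusted p = 0.174) and LDHD (-0.63, adjusted p = 0.203) did not pass, and LDHB had a log2 fold change of 1.73. Leaving out 1 library changed 3 of these outcomes. SLC16A3 passed in parental 786-O against parental A498 without resistant 786-O replicate 2 (0.08, adjusted p = 0.041). Between the resistant groups BSG passed without resistant 786-O replicate 1 (-0.16, adjusted p = 0.0429) and LDHD without resistant A498 replicate 1 (-1.34, adjusted p = 0.0283). The LDHD values are a description from which no call is read. LDHD passed the filter on low counts through resistant 786-O and parental A498, where it was high, and not through resistant A498. With the GC and length trend removed, SLC16A3 passed in parental 786-O against parental A498 (0.48, adjusted p = 0.00237), LDHA there was 0.12 (adjusted p = 0.00514) and BSG 0.78 (adjusted p = 4.76e-08). Between the resistant groups that setting ended the call of SLC16A3 (-0.23, adjusted p = 0.141) and brought LDHA to 0.09 (adjusted p = 0.0487) and SLC16A7 to 0.40 (adjusted p = 0.00298).

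Of 39 related genes listed for their place around lactate and pyruvate, 32 were tested. In resistant A498 against parental A498, 13 were higher and 13 lower, against 36.3% and 36.4% of all genes. Other genes of the SLC16 family carry amino acids, creatine and further substrates. SLC16A4 stood at 114.7 CPM in parental A498 and 14.5 in resistant A498 (-2.98), SLC16A13 at 32.2 and 5.22 (-2.63) and SLC16A9 at 8.46 and 0.514 (-4.02). SLC16A11 had 27 to 54 counts in the parental A498 libraries and 1 to 8 in every other library. This gene passed the filter on low counts only through parental A498 and is among the 13 lower ones. Among the 13 higher ones is SLC16A10, which passed that filter only through the resistant groups, where it was high. SLC16A12 was higher, at 2.04 and 8.88 CPM (2.12), as was SLC16A5 (0.94). SLC16A11, SLC16A10 and SLC16A5 are named after their values were seen. The largest of these differences separate the parental lines as well, with parental 786-O against parental A498 at -3.70 for SLC16A4, -5.33 for SLC16A9, -3.51 for SLC16A13 and 1.5 for SLC16A12.

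**Figure D5:**
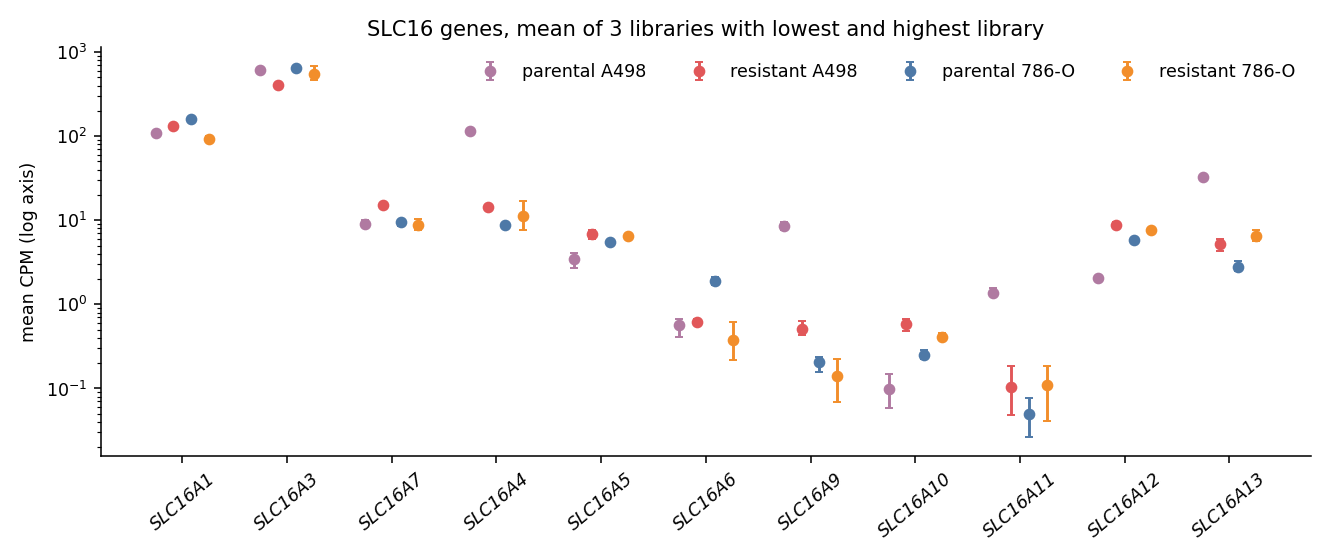
Mean CPM of 3 libraries (points, log axis) with the lowest and highest library (bars) of 11 SLC16 genes in the 4 groups, for comparison of groups within a gene. SLC16A4, SLC16A9 and SLC16A13 are highest in parental A498, and their resistant A498 values lie near those of parental 786-O and resistant 786-O.

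Against parental 786-O, SLC16A4 (0.72), SLC16A9 (1.32), SLC16A10 (1.23), SLC16A12 (0.62) and SLC16A13 (0.88) were higher in resistant A498, and SLC16A6 (-1.61) was lower. In resistant 786-O against parental 786-O, SLC16A13 (1.19, 2.81 to 6.45 CPM), SLC16A10 (0.73) and SLC16A12 (0.42) were higher and SLC16A6 (-2.31) was lower. All of these but SLC16A13 are named after their values were seen in these comparisons. SLC16A10 had 9 to 11 counts per library in parental 786-O, 17 to 21 in resistant 786-O and 10 to 18 in resistant A498. It passed the filter on low counts only through the resistant groups, where it was high, so its values are given as a description. Over all related genes, 15 were higher and 10 lower in resistant A498 against parental 786-O, against 31.6% and 32.1% of all genes, and 9 were higher and 13 lower in resistant 786-O, against 35% and 33.5%. Both counts of lower genes include LDHC, which passed the filter on low counts only through parental 786-O. Both counts of higher genes include SLC16A10.

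Among 10 enzymes that make or use pyruvate, 7 were lower and 1 was higher in resistant 786-O against parental 786-O, where 33.5% and 35% of all genes were, with a median log2 fold change of -0.39 against 0.03 over all genes. The lower ones were pyruvate kinase PKM (-0.42), the pyruvate dehydrogenase complex genes PDHA1 (-0.45), DLAT (-0.45) and PDHX (-0.48), pyruvate carboxylase PC (-0.47) and malic enzymes ME1 (-0.27) and ME2 (-0.36), and the higher one was alanine aminotransferase GPT (2.78, 0.319 to 2.22 CPM). In resistant A498 against parental A498, 4 were higher, PDHA1 (0.99), PDHB (0.83), DLAT (0.79) and ME2 (0.81), and 4 lower, PC (-1.22), ME1 (-0.75), GPT2 (-0.55) and PDHX (-0.40). Against parental 786-O, GPT (1.68) and GPT2 (0.47) were higher and ME1 (-0.23), ME2 (-0.39), PDHA1 (-0.24) and PKM (-0.25) lower in resistant A498. Apart from PC in the comparison of resistant A498 with parental A498, these enzymes are named after their values were seen. With the GC and length trend removed, ME1 no longer passed in resistant 786-O (0.0003, adjusted p = 0.999), where PC was -0.80 and PKM -0.64. In resistant A498 against parental A498, ME2 was then 0.42, DLAT 0.49 and PDHX -0.61, and against parental 786-O PKM was -0.40. GLO1, whose product leads to D-lactate, the substrate of LDHD, stood at 101.5 CPM in parental A498 and 204 in resistant A498 (1.01), and at a log2 fold change of 0.35 for resistant A498 against parental 786-O.

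Of 5 regulators listed, PPARGC1A and EPAS1 were higher in both resistant groups. PPARGC1A is a coactivator of mitochondrial genes that is known to favour LDHB over LDHA in muscle. It stood at 0.731 CPM in parental A498 and 15.02 in resistant A498 (4.31, adjusted p = 2.54e-12), and at 1.10 in parental 786-O and 7.41 in resistant 786-O (2.73, adjusted p = 2.94e-10). Against parental 786-O, resistant A498 was higher by 3.75 on the log2 scale. EPAS1, named after its values were seen, changed by 0.57 (adjusted p = 2.94e-05) in resistant A498 and 0.32 (adjusted p = 0.0039) in resistant 786-O. For resistant A498 against parental 786-O it was 0.55. With the GC and length trend removed the EPAS1 change in resistant 786-O did not pass (0.13, adjusted p = 0.148). For HIF1A the log2 fold change was -5.11 in resistant A498 against parental A498, -0.29 in resistant A498 against parental 786-O and -0.23 in resistant 786-O against parental 786-O. The last did not pass with the GC and length trend removed (0.11, adjusted p = 0.0835).

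Genes whose pattern was among the most like that of LDHB over the 12 libraries, by Pearson correlation of log2 CPM among 11128 genes, were RIDA (0.986), PPP3R1 (0.983), SHOC2 (0.983) and ENSG00000273275 (0.979). For LDHA they were WBP11 (0.993), CDK2AP1 (0.993), UBE2E3 (0.992), FKBP3 (0.992) and HNRNPDL (0.991). The 12 points are 4 groups of replicates that share batch labels, so these values mostly describe the order of 4 group means.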

How the data were processed

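Messenger RNA of 4 groups of 3 cell line libraries was measured. The authors deposited raw gene counts without normalization, 1 value per gene and library. Per their methods and the submitters' processing notes, reads were trimmed with Trimmomatic 0.36.6, aligned to GRCh38 with HISAT2 2.1.0 and counted on exons with featureCounts 1.6.3. Genes overlapping on a strand and genes on opposite strands can lose or exchange reads in such counts. Libraries were grouped by their labels.

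Differences between groups came from edgeR 4.0.16 under R 4.3.3 (filterByExpr, 19929 genes kept, TMM, 1 quasi-likelihood fit of 12 libraries with 4 group means), with Benjamini-Hochberg adjustment over all genes tested and a threshold of 0.05. Log2 fold changes use a prior count of 0.125, and their SE comes from the quasi-likelihood F statistic. Python 3.11.15, pandas 2.3.3 and matplotlib 3.10.9 served for tables and plots. Lengths and positions came from GENCODE 44. In data simulated for resistant 786-O against parental 786-O with 19185 genes, 197 of 200 genes changed 2-fold were recovered and 17 unchanged ones called. The changed genes were drawn among well-counted genes, and all others were alike in the 4 groups. In the real counts 68.5% of genes were called in that comparison, so the simulation does not cover that setting or genes with few counts.

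Results of some genes are not reported here. The members, related genes and marker lists were chosen with earlier results of these data known. Named were all members, HIF1A, related genes called with at least 5 CPM in the higher group and an absolute log2 fold change over 1, and the 5 genes most correlated with LDHB and with LDHA among genes with at least 10 CPM in a group. Alternatives were library size scaling, DESeq2 1.42.0 with its own size factors, no filter, a minimum of 10 counts, the study's own test of raw counts, a fit of each line by itself, a replicate block, the GC and length trend removed, a minimum absolute log2 fold change of 1, other exon lengths and each library left out. Fits without the resistant A498 libraries and the ratio with the length of LDHB's own bases were added after seeing the data.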

Additional observations from a re-analysis of the deposited data

Results flagged for a closer look

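For 7 members the change from parental to resistant was not alike in the lines, taken as that in resistant A498 minus that in resistant 786-O on the log2 scale. It was 0.59 for LDHA, 1.01 for SLC16A1, 0.85 for SLC16A7 and 0.35 for BSG, and it was -0.39 for SLC16A3, each past the threshold in the interaction contrast of edgeR's fit. The LDHD value of -4.35 is a fitted one that depends on the prior count, since each parental 786-O library had 2 counts, and it is given with no test. With the GC and length trend removed the difference was 0.21 (adjusted p = 0.157) for SLC16A7 and 0.24 (adjusted p = 0.217) for SLC16A3, which did not pass. For LDHB the difference was 2.1, the value by which it was chosen, with no test. SLC16A1 is the member for which resistant A498 lies above parental A498 and resistant 786-O below parental 786-O with no overlap of libraries in either. All of these differences use parental A498 as the reference of the resistant A498 libraries, which lay closer to parental 786-O. Groups of 3 libraries are too small to test for an outlying library.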

How the results depend on the processing

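Among the values of single members under the alternatives, 934 kept their direction and call, 37 lost a call, 11 gained one and 15 turned, as given here. Counts of members here include LDHD. Of the counts of members and ratios, 155 stayed within their limits and 21 moved. Requiring also an absolute log2 fold change over 1 left 1 member called in resistant A498 against parental A498, where 6137 of all 19929 genes tested were. It left 1 in resistant 786-O against parental 786-O (4382 genes) and 2 for the difference (6998 genes). It left 1 in parental 786-O against parental A498 (6360), 1 in resistant A498 against parental 786-O (3983) and 0 in resistant A498 against resistant 786-O (1455). Where 1 was left it was LDHD, which was at the limit of detection, and the 2 were LDHD and SLC16A1. The study's own test of raw counts called 2 members in resistant A498 against parental A498, where it called 6222 of all 19929 genes. In resistant A498 against parental 786-O that test called 3 members and 13229 genes. It also turned the direction, without depth scaling, of resistant A498 against resistant 786-O for LDHA (-0.66), SLC16A1 (-0.42) and SLC16A7 (-0.14), of resistant A498 against parental 786-O for SLC16A7 (-0.0853) and BSG (-0.31), and of resistant 786-O against parental 786-O for SLC16A7 (0.0569). Removal of the GC and length trend turned SLC16A1 in resistant A498 against parental A498 (-0.0018), the SLC16A3 difference (0.24), SLC16A7 in resistant 786-O against parental 786-O (0.17) and parental 786-O against parental A498 (-0.18), and BSG in resistant A498 against resistant 786-O (0.17). Scaling by library size turned SLC16A3 in parental 786-O against parental A498 (-0.0095) and SLC16A7 in resistant 786-O against parental 786-O (0.0139) and parental 786-O against parental A498 (-0.0127), and the 10-count minimum turned the last (-0.0004). Library size scaling also moved the median of all genes from 0.03 to 0.18 in resistant 786-O against parental 786-O and from 0.003 to 0.15 in resistant A498 against parental 786-O. The causes were not tested. The LDHA to LDHB ratio in parental A498, resistant A498, parental 786-O and resistant 786-O was 73.0, 78.0, 70.7 and 223 in counts. In the same order it was 50.1, 53.6, 48.5 and 153 with the length of the longest transcript. With the length of the own bases of each main transcript, and the same counts, it was 9.97, 10.7, 9.65 and 30.5. With the GC and length trend removed it was 37.6, 36.4, 34.2 and 115. Leaving out each library, 4 to 6 members were called in resistant A498 against parental A498, where 13884 to 15666 of all genes were. In resistant 786-O against parental 786-O, 4 to 5 members and 12626 to 14880 of all genes were called.

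Same-numbered libraries did not deviate together in every pair (r of 0.0683, -0.0082 and 0.11 for resistant A498 with parental A498, and -0.253, -0.145 and 0.0403 for resistant 786-O with parental 786-O). For replicate 3 of resistant A498 with resistant 786-O, r was 0.254. Whether same-numbered libraries share a culture or a processing step cannot be told from these values, and the main fit has no replicate term. With the replicate number as a block, 6, 4, 6, 4, 6 and 4 members were called in the order given above, as without it. These are counts out of 6 members tested, LDHD among them. In that order 14389, 13497, 13494, 14714, 12566 and 8974 of all 19929 genes were then called.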

Other observations

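LDHB was set beside other genes whose exons are shared to at least the same part with another gene on the same strand. These were 209 of 19860 tested genes with an annotation (1.05%). Their median log2 fold change in resistant 786-O against parental 786-O was 0.41, against 0.03 over all genes, with a 5th percentile of -1.18 and a 95th of 1.74, and LDHB was at -2.38. In resistant A498 against parental A498 their median was -0.22, with percentiles of -1.99 and 1.42, and LDHB was at -0.28. LDHB was chosen by its fold changes, so its place among these genes carries no test. The shared part is that of GENCODE 44, and how the authors' annotation splits these genes was not tested.

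The 7 related genes that did not pass the filter on low counts were the sodium-coupled transporters SLC5A8 and SLC5A12, the lactate receptor HCAR1, SLC16A8, SLC16A14, LDHAL6A and LDHAL6B. None exceeded 0.221 CPM in any library.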
